A study of Mus musculus with 15 samples.

Results

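The genes of the major histocompatibility complex (MHC) and of antigen presentation were followed in bulk RNA sequencing of mouse dorsal skin. The set held every gene in the deposited table whose symbol begins with H2- (35 genes), together with Cd74, Ciita, B2m, Tap1, Tap2, Tapbp, Psmb8, Psmb9, Psmb10 and Nlrc5 (10 genes). These were 45 of the 18929 genes in the table. By role they comprised 3 classical class I genes, 22 non-classical class I genes, 6 genes of class I peptide supply, 5 class II chains, 6 class II accessory genes, 2 transactivators and H2-Ke6, which is named for its place in the region and encodes a steroid dehydrogenase rather than an MHC molecule. In the counts below, the class I side is the first 3 of these groups and the class II side the next 2. After genes with low counts were removed, 39 of the 45 could be tested, 26 on the class I side and 10 on the class II side. H2-Eb2, H2-M1, H2-M11, H2-Q10, H2-T18 and H2-T3 did not pass this filter.

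The study compared 5 groups of 3 samples from wild-type male balb/c mice, 4 to 6 weeks old at the start. Full-thickness excisional wounds of 10 mm or 15 mm were filled either with acellular Matrigel beads or with printed beads carrying mesenchymal stem cells (MSCs) at high density (HDB), the space between these beads being filled with acellular ones, and skin that had not been wounded (normal) was the reference. All 4 wound groups thus carried Matrigel, and the transplanted MSCs were human, from umbilical cord, so that the HDB groups were xenografts. The methods give both 4 weeks of implantation and day 21 for these skin samples, and the labels give no time, so wounded skin is called healed skin below only as a name. Nothing in the labels or methods states that the 3 samples of a group came from separate mice, and p-values then measure only the spread between these samples.

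Values are TMM-normalised CPM (counts relative to library size), fold changes are on the log2 scale with their standard errors (SE), and a gene was called at a Benjamini-Hochberg adjusted p under 0.05 from edgeR's quasi-likelihood test over all 15369 genes tested. Total counts per sample ranged from 15840551 to 18404188, and the 45 genes took between 0.218% and 1.04% of them. Acellular 15 mm skin was the most uneven group, with replicate 1 at or near the lowest level of all samples for most of these genes and replicate 3 close to the highest. Replicate 1 also stood apart in its tissue markers, with a sum of 7921 CPM over 7 hair shaft genes, where the other healed samples reached at most 609.6 and normal skin at most 5.83, and with the lowest sums of keratinocyte (5257 CPM) and T cell markers (4.02 CPM). In tissue sequenced in bulk, fewer cells of a type and less RNA per cell cannot be told apart. Of the skin and immune markers listed, none was at 0 in every sample. The summed level of 5 keratinocyte markers was between 5257 and 15771 CPM in healed skin and between 6512 and 7575 in normal skin. The sums of 4 skeletal muscle genes (375 to 22556 CPM in healed, 31096 to 33087 in normal skin) and of 4 endothelial genes (76.5 to 312 against 405 to 452) did not overlap. The part of these shifts, and of that replicate's make-up, in the MHC levels was not tested. B cell markers were near 0, with a sum of at most 2.35 CPM over 4 genes in any sample.

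Class I molecules are made of a heavy chain (H2-K1, H2-D1 or a non-classical relative) and the light chain beta-2-microglobulin (B2m), and show peptides from inside the cell to CD8 T cells and NK cells. Their peptides are cut by the proteasome, in which the inducible subunits Psmb8, Psmb9 and Psmb10 replace Psmb5, Psmb6 and Psmb7, are carried into the endoplasmic reticulum by the transporter Tap1-Tap2 and are loaded with the help of tapasin (Tapbp). Class II molecules (H2-A and H2-E chains) are found on dendritic cells, Langerhans cells, macrophages and B cells, are escorted by the invariant chain Cd74, and receive their peptides through H2-DM, which H2-O holds back. Transcription of the first system depends on Nlrc5 and of the second on Ciita, both of which respond to interferon gamma and act through a shared promoter module with an X box and a Y box.

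Promoter windows of 300 bases (250 before and 50 after the start, RefSeq on GRCm38.p6, a C57BL/6J reference) were found for 32 of the 45. The 4 below are shown because they belong to genes on which the comparisons turn, with letters matching a searched motif in capitals. They are, in order, Tap1 (chr17:34187306-34187605, plus strand), B2m (chr2:122147437-122147736, plus strand), H2-Aa (chr17:34287774-34288073, minus strand) and H2-Eb1 (chr17:34305617-34305916, plus strand).
Tap1: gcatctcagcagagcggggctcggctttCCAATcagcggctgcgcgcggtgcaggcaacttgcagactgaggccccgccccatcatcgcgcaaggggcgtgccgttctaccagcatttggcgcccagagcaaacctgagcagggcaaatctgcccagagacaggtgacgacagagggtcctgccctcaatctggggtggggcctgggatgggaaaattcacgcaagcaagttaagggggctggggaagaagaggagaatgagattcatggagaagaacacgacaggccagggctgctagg
B2m: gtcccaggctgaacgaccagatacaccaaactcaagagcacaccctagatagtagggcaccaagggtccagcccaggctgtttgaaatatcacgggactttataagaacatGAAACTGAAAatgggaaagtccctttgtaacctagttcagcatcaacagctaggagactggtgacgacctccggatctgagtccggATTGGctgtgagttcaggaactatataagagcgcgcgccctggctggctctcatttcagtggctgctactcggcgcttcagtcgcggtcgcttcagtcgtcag
H2-Aa: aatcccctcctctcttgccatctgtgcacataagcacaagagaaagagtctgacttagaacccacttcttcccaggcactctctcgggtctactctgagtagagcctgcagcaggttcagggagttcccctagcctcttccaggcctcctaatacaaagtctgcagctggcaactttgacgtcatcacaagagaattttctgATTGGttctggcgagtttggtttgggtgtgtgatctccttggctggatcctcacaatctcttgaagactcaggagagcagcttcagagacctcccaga
H2-Eb1: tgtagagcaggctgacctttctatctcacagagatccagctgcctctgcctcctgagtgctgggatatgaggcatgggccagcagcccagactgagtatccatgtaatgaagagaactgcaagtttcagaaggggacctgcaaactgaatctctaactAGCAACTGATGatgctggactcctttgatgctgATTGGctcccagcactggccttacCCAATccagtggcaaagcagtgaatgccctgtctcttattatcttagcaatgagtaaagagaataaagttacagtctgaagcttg

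The motifs, searched on both strands, were CCAAT (the core of the Y box) and the cores of the X box, the interferon-stimulated response element, the gamma-activated site (TTCNNNGAA) and enhancer A of class I genes. CCAAT or its complement was found in 18 of 23 class I side genes and 8 of 8 class II side genes with a window, against 41.1% of 27025 genes. In H2-Eb1 the X box letters began at position -92 from the start and were followed by matches to CCAAT at -59 and -35. The X box letters were otherwise found in H2-DMb1 and H2-Eb2, so in 3 of 8 class II side genes and 0 of 23 class I side genes, against 1.40% of all genes. H2-Aa held a match to CCAAT at -48 and none to the X box letters as written. The interferon-stimulated response element letters were in B2m (at -139), H2-T22 and H2-T23 (3 of 23, against 3.99% of all genes), and the gamma-activated site letters in Psmb8, H2-M3, H2-M11 and H2-DMb2 (4 of the 31, against 9.55%). Only 9 genes of the 27025 (0.0333%) held the enhancer A letters, and 3 of these were H2-K1, H2-D1 and H2-Q6. Tap1 and Psmb9 are divergent neighbours whose windows overlap, and the CCAAT shown for Tap1 lies in both. These matches describe letters in a window and not bound sites.

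All members with coordinates on the primary assembly of GRCm38 lay on chromosome 17, except B2m (chromosome 2), Nlrc5 and Psmb10 (chromosome 8), Ciita (chromosome 16) and Cd74 (chromosome 18). Corrected for transcript length and averaged over the 15 samples, the level of B2m was the highest of the class I side at 1230.2 CPM per kilobase, followed by the heavy chains H2-K1 (704) and H2-D1 (644). The class II chain H2-Aa (374), Cd74 (354), H2-Ab1 (244), H2-Ea-ps (211) and H2-Eb1 (153) came next on the same scale. Non-classical class I genes lay below these, with H2-Q4 (127) and H2-T23 (126) at the top of their group and H2-M9 (0.594) and H2-Q2 (0.413) at the bottom of those tested. Peptide supply genes ranged from 26.2 (Psmb10) to 74.8 (Tapbp) CPM per kilobase, Nlrc5 reached 12.4 and Ciita 4.07. H2-Ea-ps is a transcribed pseudogene in the C57BL/6J reference, in which the E alpha chain is not made, and its reads are given under that symbol. Counts of 22 members, among them H2-K1, H2-D1, H2-Q4, H2-Q6, H2-Q7, H2-Q8, H2-Q9, H2-T22, H2-T23, H2-DMb1 and H2-DMb2, held decimals, as arise where reads are shared out between similar transcripts. The division between these near-identical genes is therefore uncertain, all the more as balb/c mice carry another MHC haplotype than the reference.

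The most general comparison set the 12 healed samples against the 3 normal samples. Of 39 members tested 2 were called, Tap1 higher and H2-M9 lower (a gene tested only because normal skin carried it past the filter), or 1 in each direction, where 30.9% of all genes were called (14.2% higher and 16.7% lower). A further 6 had an unadjusted p under 0.05, giving 8 of 39, against 43.7% of all genes. These shares are below the background. The median log2 fold change was 0.35 over the 26 tested class I side genes, with 21 above 0, and -0.072 over the 10 class II side genes, with 4 above 0, beside a median of 0.045 over all genes tested.

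Tap1, which encodes one chain of the peptide transporter, was the only peptide supply gene called. It was at 194, 196 and 130.4 CPM in acellular 10 mm skin, 50.6, 95.7 and 148 in acellular 15 mm skin, 117, 164 and 204 in HDB 10 mm skin, 130.0, 93.7 and 129 in HDB 15 mm skin and 78.0, 78.9 and 67.9 in normal skin. The 3 normal samples lay below 11 of the 12 healed samples, and acellular 15 mm replicate 1 lay below all 3. Its log2 fold change was 0.84 (SE 0.270, adjusted p = 0.0342). The call was lost when acellular 10 mm replicate 1, HDB 15 mm replicate 1 or 3, or any 1 normal sample was left out, and also with the replicate number as a block, without (adjusted p = 0.05003) or with (adjusted p = 0.0525) each sample's trend with transcript length removed, while over all alternatives the adjusted p ranged from 0.0054 to 0.144. The log2 fold change stayed between 0.73 and 0.92 whichever sample was left out.

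Of the remaining peptide supply genes none was called. Tap2, the partner chain, was at 135, 160.2 and 97.7 CPM in acellular 10 mm skin, 38.0, 91.3 and 119 in acellular 15 mm skin, 90.9, 109 and 146 in HDB 10 mm skin, 104, 92.3 and 119 in HDB 15 mm skin and 69.5, 76.6 and 70.4 in normal skin. Again 11 of 12 healed samples were above normal skin, with a log2 fold change of 0.57 (SE 0.267, adjusted p = 0.121). Psmb8, an inducible proteasome subunit, was at 121, 164 and 84.6 CPM in acellular 10 mm skin, 25.7, 61.0 and 98.4 in acellular 15 mm skin, 77.4, 121 and 125 in HDB 10 mm skin, 92.9, 81.1 and 107 in HDB 15 mm skin and 61.9, 75.5 and 66.7 in normal skin, so that 10 of 12 healed samples were above and 2 below the normal range. It differed by 0.46 (SE 0.309, adjusted p = 0.270). For Psmb9 the log2 fold change was 0.61, for Tapbp 0.16 and for Psmb10 0.026, all with the adjusted p above 0.05. The constitutive counterparts Psmb5, Psmb6 and Psmb7 had log2 fold changes of 0.14, -0.070 and -0.15, and 0 of 14 constitutive proteasome genes were called by edgeR, against 30.9% of all genes (2 at an unadjusted p under 0.05, against 43.7%).

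The classical class I genes were not called. B2m was at 1432, 1512 and 907 CPM in acellular 10 mm skin, 407, 714 and 1109 in acellular 15 mm skin, 925, 1586 and 1358 in HDB 10 mm skin, 1247, 1070.4 and 1268 in HDB 15 mm skin and 753, 897 and 683 in normal skin. It was above the normal range in 10 of 12 healed samples and below it in 1, and differed by 0.50 (SE 0.267, adjusted p = 0.166). H2-D1, a classical heavy chain and the classical gene with the most reads, was at 1569, 1788 and 1101 CPM in acellular 10 mm skin, 490.1, 1039 and 1694 in acellular 15 mm skin, 1210.0, 1716 and 1573 in HDB 10 mm skin, 1588, 1457 and 1608 in HDB 15 mm skin and 1040.5, 1464 and 983 in normal skin. Its healed and normal values overlapped more widely, with 7 of 12 above the normal range and a log2 fold change of 0.26 (SE 0.288, adjusted p = 0.515). H2-K1, the second classical heavy chain, differed by 0.42 (SE 0.289, adjusted p = 0.279), with 8 of 12 healed samples above the normal range.

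Among the 17 tested non-classical class I genes, 12 had a log2 fold change above 0 and 5 below 0. H2-Q4, the one with the highest count, was at 280.3, 322 and 219 CPM in acellular 10 mm skin, 76.0, 169 and 311 in acellular 15 mm skin, 219, 268 and 314 in HDB 10 mm skin, 229.6, 213 and 253 in HDB 15 mm skin and 175, 201 and 154 in normal skin. It was above the normal range in 10 of 12 healed samples, with a log2 fold change of 0.42 (SE 0.295, adjusted p = 0.288). H2-Q7 and H2-Q6, which encode Qa-2 antigens, were above it in 11 of 12 each (log2 fold changes 0.78 and 0.69, not called by edgeR). DESeq2 called H2-Q7 and H2-Q2 higher as well as Tap1, with H2-M9 lower, against 30.1% of all genes. H2-T24 went the other way, with 11 of 12 healed samples below the normal range, 8.16 (median 18.3) to 41.9 CPM against 25.3, 33.9 and 30.9, and a log2 fold change of -0.60 (SE 0.287, adjusted p = 0.126). H2-M9, the called gene, was at 0.0571, 0.0562 and 0.117 CPM in acellular 10 mm skin, 0.113, 0.175 and 0.319 in acellular 15 mm skin, 0.355, 0.430 and 0.833 in HDB 10 mm skin, 0, 1.82 and 0.113 in HDB 15 mm skin and 1.41, 0.670 and 3.56 in normal skin. These are low levels, and 10 of 12 healed samples lay below normal skin. The log2 fold change of H2-M9 was -2.75 (SE 0.736, adjusted p = 0.0163), and without normal replicate 3, which held the most, the adjusted p was 0.163 (0.0015 to 0.163 over all alternatives) and the log2 fold change -1.89. The filter asked for 0.593 CPM in at least 3 samples, which H2-M9 reached in 3 normal and 2 healed samples, so that it was tested only through the group in which it was high and had to differ. Its calls below carry the same limit.

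No class II chain was called between healed and normal skin. H2-Ab1, the A beta chain, was at 232, 398 and 132 CPM in acellular 10 mm skin, 67.1, 208 and 451 in acellular 15 mm skin, 200.4, 314 and 459 in HDB 10 mm skin, 255, 349 and 461 in HDB 15 mm skin and 281, 347 and 283 in normal skin. Healed samples reached from far below to above the normal range, 6 of 12 being below and 5 above it, and the log2 fold change was -0.066 (SE 0.440, adjusted p = 0.921). H2-Aa, the A alpha chain with the highest level of the group, was at 344, 553 and 207 CPM in acellular 10 mm skin, 82.0, 264 and 614 in acellular 15 mm skin, 281, 456 and 658 in HDB 10 mm skin, 354, 533 and 679 in HDB 15 mm skin and 384, 507 and 411 in normal skin. It also had 6 of 12 healed samples below and 5 above normal skin and differed by -0.078 (SE 0.450, adjusted p = 0.908). H2-Eb1 (0.028) and H2-Ea-ps (-0.11) were alike in having a log2 fold change smaller than its standard error.

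The class II accessory genes split in sign but none was called. Cd74, the invariant chain, was at 368, 599 and 218 CPM in acellular 10 mm skin, 102, 325 and 807 in acellular 15 mm skin, 334, 468 and 739 in HDB 10 mm skin, 412, 597 and 806 in HDB 15 mm skin and 485, 667 and 550.2 in normal skin. Of 12 healed samples 7 were below the normal range and 3 above it, and the log2 fold change was -0.26 (SE 0.455, adjusted p = 0.686). H2-Ob, which encodes the beta chain of the H2-O inhibitor, was at 3.65, 4.32 and 1.99 CPM in acellular 10 mm skin, 1.08, 4.14 and 8.28 in acellular 15 mm skin, 2.13, 4.95 and 9.83 in HDB 10 mm skin, 3.71, 5.15 and 5.93 in HDB 15 mm skin and 1.90, 1.87 and 2.08 in normal skin. It exceeded the normal range in 10 of 12 healed samples and differed by 1.21 (SE 0.547, adjusted p = 0.108). H2-Oa, its alpha chain, was above normal skin in 11 of 12 (log2 fold change 0.83, not called), at levels of 0.0567 to 3.11 CPM. The H2-DM genes, which promote peptide exchange, gave -0.25 (H2-DMa), -0.28 (H2-DMb1) and 0.27 (H2-DMb2).

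Of the transactivators, Nlrc5 was at 137, 137 and 99.8 CPM in acellular 10 mm skin, 28.5, 81.0 and 139 in acellular 15 mm skin, 86.6, 109 and 175 in HDB 10 mm skin, 91.6, 64.1 and 86.7 in HDB 15 mm skin and 63.7, 60.8 and 47.3 in normal skin. As with Tap1, 11 of 12 healed samples were above the normal range, and the log2 fold change was 0.81 (SE 0.356, adjusted p = 0.0985). Ciita was at 13.6, 28.8 and 11.4 CPM in acellular 10 mm skin, 6.35, 20.1 and 51.2 in acellular 15 mm skin, 20.1, 27.2 and 48.7 in HDB 10 mm skin, 17.9, 23.6 and 32.4 in HDB 15 mm skin and 20.1, 24.4 and 20.6 in normal skin, with 6 of 12 healed samples below the normal range, 5 above it and a log2 fold change of 0.18 (SE 0.472, adjusted p = 0.788). H2-Ke6 was between 28.8 and 69.7 CPM in healed and between 46.8 and 58.9 CPM in normal skin, with a log2 fold change of -0.00085.

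**Figure D1:**
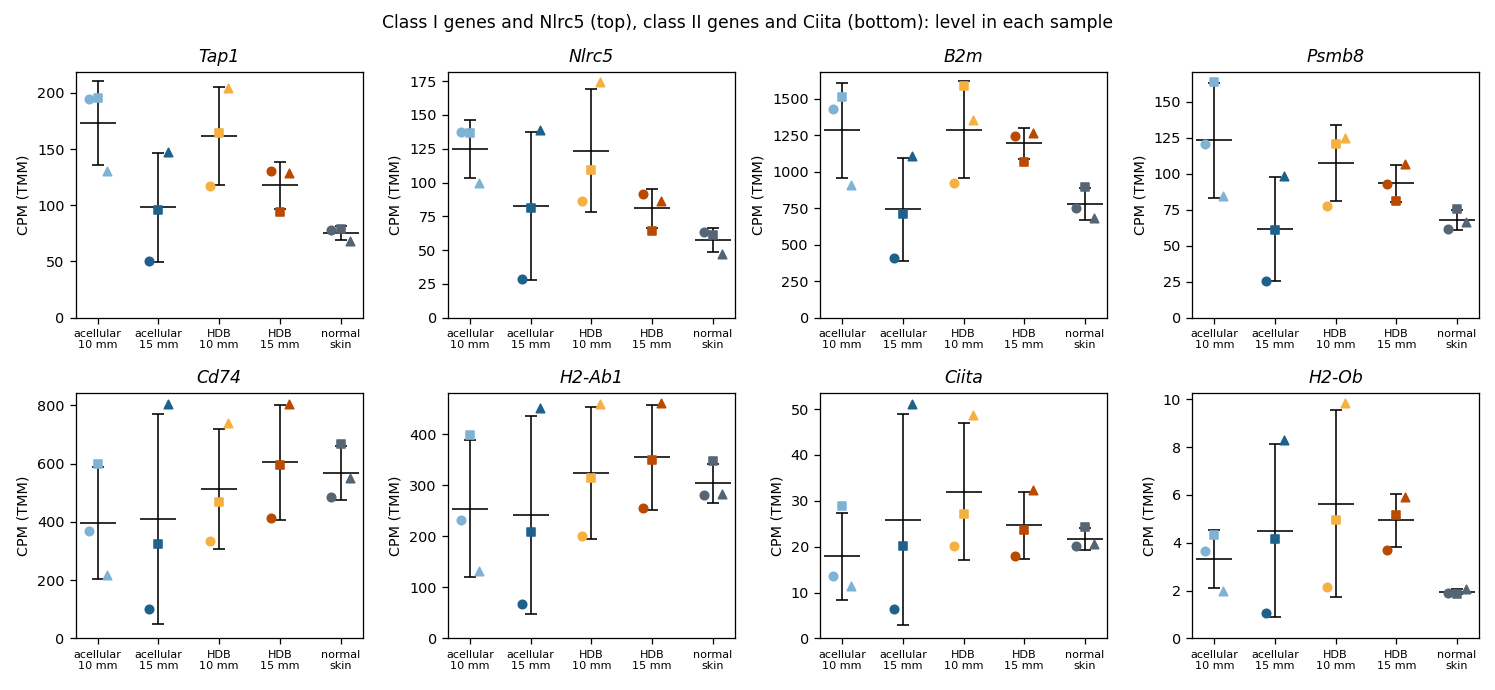
Level in each sample (y axis, TMM-normalised CPM, linear from 0) of 4 class I genes or their transactivator (top) and 4 class II genes or theirs (bottom) in the 5 groups (x axis), where circles, squares and triangles are replicates 1, 2 and 3, the horizontal line is the mean and the bars 1 SD (n = 3). Tap1 and Nlrc5 were above all 3 normal samples in 11 of 12 healed samples, Cd74 in 3 of 12, and acellular 15 mm replicate 1 was the lowest sample in each panel.

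The number of calls rested on 1 sample more than on any other. Without acellular 15 mm replicate 1, edgeR called 12 members, where 40.1% of all genes were called, with B2m, H2-Ob, H2-Q1, H2-Q2, H2-Q4, H2-Q6, H2-Q7, Nlrc5, Psmb9, Tap1 and Tap2 higher and H2-M9 lower in healed skin. Without normal replicate 3 it called 0, where 11.9% of all genes were called.

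**Figure D2:**
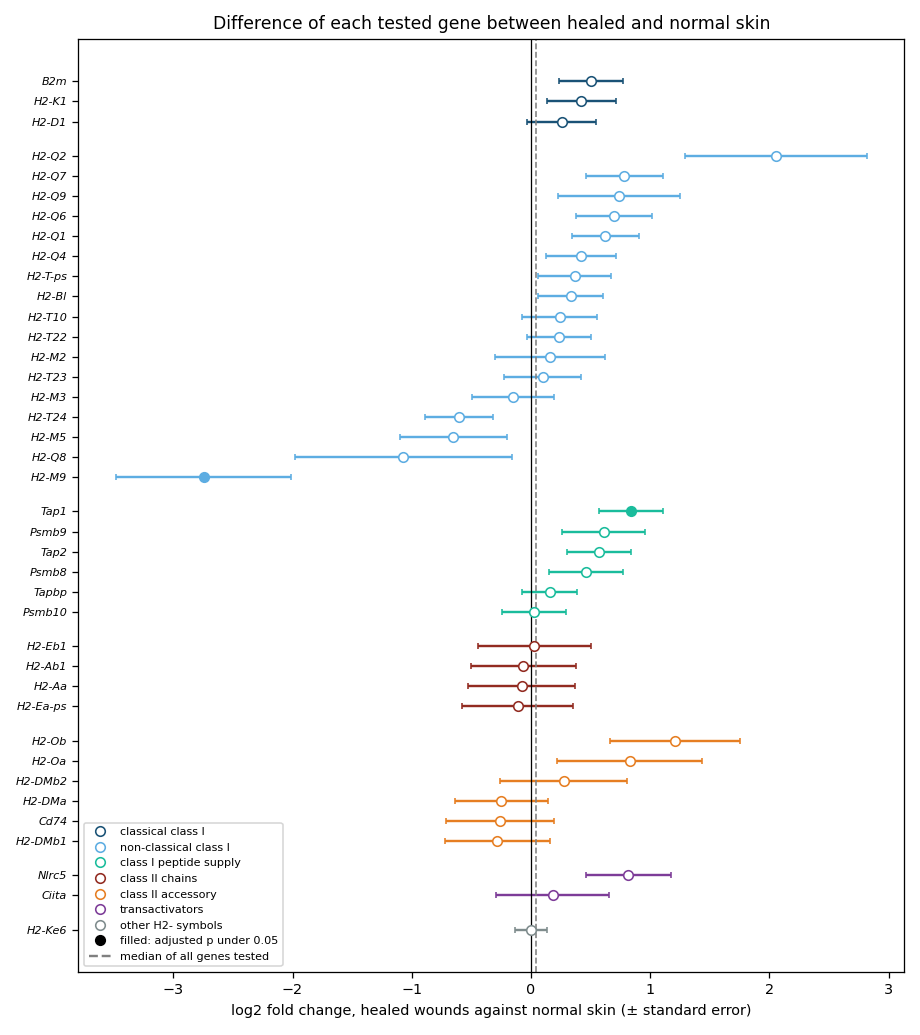
Log2 fold change of each of the 39 tested genes between the 12 healed and 3 normal samples (x axis, point and bar for the estimate ± its standard error), grouped by role and ordered within it. Only Tap1 (0.84) and H2-M9 (-2.75) are filled as called, most class I points lie to the right of the median of all genes (0.045), and the class II chains lie around 0.

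The 4 wound groups were also compared with normal skin 1 by 1. These comparisons share the same 3 normal samples and are given side by side. Acellular 10 mm skin had 3 called members, Tap1 (log2 fold change 1.21 (SE 0.326, adjusted p = 0.0248)) and H2-Q2 (2.60 (SE 0.860, adjusted p = 0.0497)) higher and H2-M9 (-4.49 (SE 1.27, adjusted p = 0.0290)) lower, against 20.3% of all genes called (9.77% higher and 10.6% lower). H2-Q2 was at 0.856, 1.40 and 0.351 CPM in acellular 10 mm skin, 0.170, 0.350 and 0.637 in acellular 15 mm skin, 0.414, 0.538 and 0.777 in HDB 10 mm skin, 0.685, 0.303 and 0.904 in HDB 15 mm skin and 0.351, 0 and 0.0671 in normal skin, levels at which a single read weighs heavily. This gene reached the filter in 6 healed samples and 0 normal ones, so it too was tested only through the samples in which it was high, and its call was lost with DESeq2's size factors in edgeR (RLE), with no filter and with the replicate block. In acellular 15 mm skin 2 were called, H2-Ke6 (-0.50 (SE 0.169, adjusted p = 0.0434)) and H2-M9 (-3.16 (SE 1.12, adjusted p = 0.0495)), both lower, against 30.2% (17.6% higher and 12.6% lower). With no filter neither was called (0 members), and with a filter at a mean of 50 counts H2-Ke6 alone was. HDB 10 mm skin had 1, Tap1 (1.11 (SE 0.325, adjusted p = 0.0448)), against 12.3% (6.1% higher and 6.23% lower). In HDB 15 mm skin 0 were called by edgeR, against 5.18% (2.67% higher and 2.51% lower), and 0 by DESeq2, against 12.4%. At an unadjusted p under 0.05 the counts were 10, 3, 7 and 1 of 39, against 38.3%, 43.8%, 31.6% and 26.9% of all genes. Each of these shares is below that of all genes in the same comparison.

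For acellular wounds of 10 mm and 15 mm the class I side had medians of 0.54 and -0.049, and for HDB wounds of these sizes 0.53 and 0.44, while those of the class II side were -0.25, -0.37, 0.10 and 0.25 in this order, beside medians of all genes between 0.019 and 0.059. Read by single genes, Nlrc5 was at 1.12, 0.53, 1.11 and 0.50 on the log2 scale in the same order, B2m at 0.72, -0.065, 0.73 and 0.62, and Cd74 at -0.52, -0.46, -0.14 and 0.093. None of these values passed the threshold, although DESeq2 called Nlrc5, H2-Q6 and H2-Q7 higher in acellular 10 mm skin beside the members called by edgeR (24.1% of all genes). Of the 39 members, 12 had every acellular 10 mm sample above every normal sample (B2m, H2-Oa, H2-Q1, H2-Q4, H2-Q6, H2-Q7, H2-T-ps, Nlrc5, Psmb8, Psmb9, Tap1 and Tap2), where 29.1% of all genes did, and 4 had every sample below, where 27.2% did. In acellular 15 mm skin 0 were wholly above (22.5%) and 3 wholly below (21.5%). For HDB 10 mm skin the counts were 15 above (25.7%) and 1 below (23.4%). In HDB 15 mm skin 17 were above, where 23.8% of all genes were, and 2 below (22.6%), the former being 14 of the 26 class I side genes, 2 of the 10 class II side genes (H2-Oa and H2-Ob) and Nlrc5. Over all 12 healed samples no member was wholly above (9.85% of all genes) or wholly below (11.1%) normal skin.

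When only the 2 groups of each comparison were fitted, edgeR called 12 members (42% of all genes) for acellular wounds of 10 mm, among them B2m, Nlrc5, Tap1 and Tap2 higher and H2-M9 and H2-T24 lower, and 0 (6.57%) for those of 15 mm. For HDB wounds it called 6 (20.2%) at 10 mm, namely H2-Q1, H2-Q6, H2-Q7, Nlrc5, Tap1 and Tap2, all higher, and 9 (22.9%) at 15 mm, the last being B2m, H2-Ob, H2-Q1, H2-Q6, H2-Q7, Psmb8, Psmb9, Tap1 and Tap2, all higher. Single samples also moved these counts. In acellular 10 mm skin 0 were called without replicate 1, replicate 2 or normal replicate 3, where 5.14%, 11.9% and 5.8% of all genes were called. The call of Tap1 there was also lost without normal replicate 1 or 2, where 11.6% and 7.04% of all genes were called. In acellular 15 mm skin H2-Ob and Nlrc5 were called higher without replicate 1 (23% of all genes), 6 members (H2-DMa, H2-Ke6, H2-M3, H2-T23, H2-T24 and Psmb10) were called lower without replicate 3 (37.3%), and 0 were called without any 1 of the normal samples (14.8% to 17.8%). The call of Tap1 in HDB 10 mm skin was lost without HDB replicate 2 or 3 or any 1 normal sample (0.501% to 3.86% of all genes), and in HDB 15 mm skin H2-M9 was called lower without replicate 2 (8.61%).

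To set class II against class I within a sample, ratios of CPM were taken, in which the sample's normalisation cancels. The pairs were chosen after the levels had been seen, and 6 tests were made. Cd74 relative to B2m was at 0.257, 0.396 and 0.240 in acellular 10 mm skin, 0.249, 0.455 and 0.727 in acellular 15 mm skin, 0.361, 0.295 and 0.544 in HDB 10 mm skin, 0.331, 0.558 and 0.636 in HDB 15 mm skin and 0.644, 0.744 and 0.805 in normal skin. The healed values ran from 0.240 to 0.727 and 11 of 12 lay below the lowest normal value of 0.644. The mean log2 ratio was lower by a difference of -0.89 in healed skin (exact two-sided permutation test over 455 arrangements, p = 0.00879, adjusted p = 0.0527 over the 6 tests). H2-Ab1 relative to H2-K1 was at 0.165, 0.254 and 0.134 in acellular 10 mm skin, 0.161, 0.238 and 0.305 in acellular 15 mm skin, 0.197, 0.221 and 0.329 in HDB 10 mm skin, 0.194, 0.290 and 0.341 in HDB 15 mm skin and 0.340, 0.323 and 0.370 in normal skin, with 10 of 12 healed values below normal skin and a difference of -0.60 (exact permutation p = 0.0220, adjusted p = 0.0659). For Ciita relative to Nlrc5 the difference was -0.73, with 9 of 12 below (exact permutation p = 0.0396, adjusted p = 0.0791). None of the 3 passed the adjusted threshold, and their direction was the same whichever sample was left out. The unadjusted p of the second rose to 0.0659 and 0.110 without normal replicates 1 and 3, and that of the third to 0.132 and 0.154 without normal replicates 2 and 3. The test treats the 12 healed samples as 1 group although they belong to 4.

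**Figure D3:**
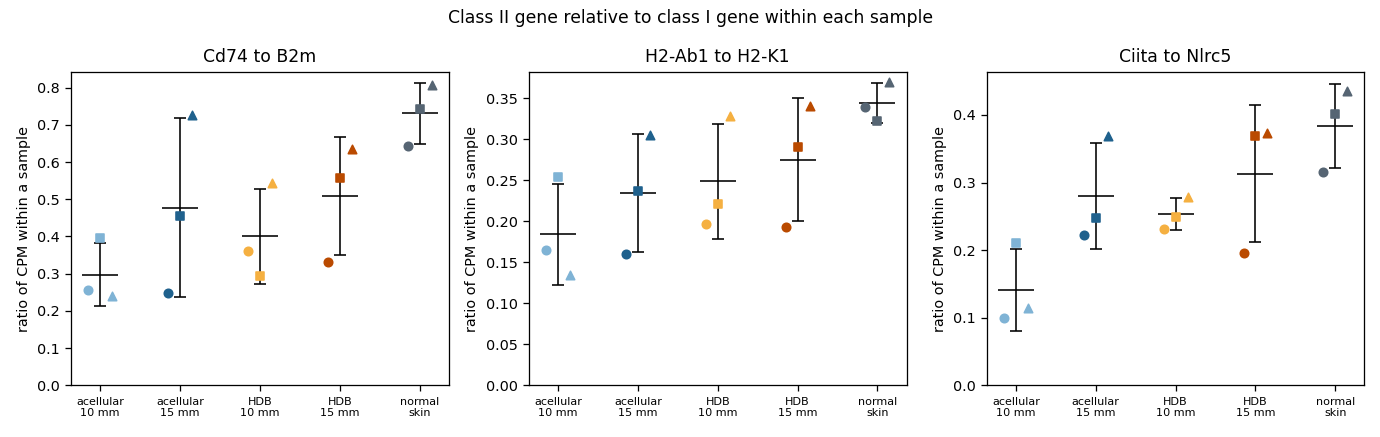
Ratio of the CPM of a class II gene to that of a class I gene within each sample (y axis, from 0) in the 5 groups (x axis), and the same for their transactivators, with replicates 1, 2 and 3 as circles, squares and triangles, and the mean and 1 SD (n = 3) as lines. For Cd74 to B2m the normal samples lie between 0.644 and 0.805, and only acellular 15 mm replicate 3 (0.727) reaches into that range.

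Over the 15 samples the transactivators were compared with genes they are known to control, in log2 CPM. Of 8 relations computed, chosen after the levels had been seen, that of Nlrc5 with Tap1 was the closest (Pearson r = 0.968, permutation p = 1.0e-05, adjusted p = 2.7e-05; Spearman rho = 0.971, permutation p = 1.0e-05). It was 0.956 without the 2 samples farthest from the median of Nlrc5. Ciita was related to Cd74 (r = 0.914, permutation p = 1.0e-05, adjusted p = 2.7e-05; rho = 0.921, permutation p = 1.0e-05; r = 0.833 without the 2 farthest samples) and to H2-Ab1 (r = 0.930, permutation p = 1.0e-05; rho = 0.943, permutation p = 3.0e-05; r = 0.882). The smallest p that 100000 permutations can give is 1.0e-05. Nlrc5 and B2m gave r = 0.854 (permutation p = 1.3e-04, rho = 0.818 with permutation p = 3.9e-04, and r = 0.737 without the 2 farthest). Across the 2 systems the values were lower, with r = 0.616 for Ciita and B2m (permutation p = 0.0149, rho = 0.464 with permutation p = 0.084) and r = 0.511 for Nlrc5 and Cd74 (permutation p = 0.0559, rho = 0.314 with permutation p = 0.253). Without the 2 farthest samples these were 0.357 and -0.092. The samples left out were those farthest from the median of Ciita in the first pair and of Nlrc5 in the second. The difference between matched and crossed pairs was not tested.

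As deviations from the group means, pooled over the groups, r was 0.973 for Nlrc5 and Tap1, 0.986 for Ciita and Cd74, 0.874 for Nlrc5 and B2m, 0.841 for Ciita and B2m and 0.871 for Nlrc5 and Cd74. The crossed pairs did not move together in each group, as in HDB 15 mm skin Nlrc5 was highest and Cd74 lowest in replicate 1. These deviations were not correlated without the farthest samples. The leukocyte gene Ptprc had an r of 0.971 with Cd74 and 0.839 with B2m on the same deviations. Over all samples its r was 0.879 with Cd74 (permutation p = 6.0e-05, adjusted p = 1.2e-04, rho = 0.746 with permutation p = 0.00203, and 0.728 without the 2 farthest samples) and 0.744 with B2m (permutation p = 0.00231, rho = 0.546 with permutation p = 0.0392, and 0.463 without the 2 farthest). Ptprc was between 12.6 and 116 CPM in acellular 15 mm skin, between 34.2 and 129 CPM in the other wound groups and between 42.5 and 50.7 CPM in normal skin. The summed level of 8 dendritic cell markers ranged from 17.4 to 138 CPM in acellular 15 mm skin, from 36.9 to 129 CPM in the other wound groups and from 51.1 to 66.6 CPM in normal skin. Their part in the levels of the MHC genes was not tested.

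**Figure D4:**
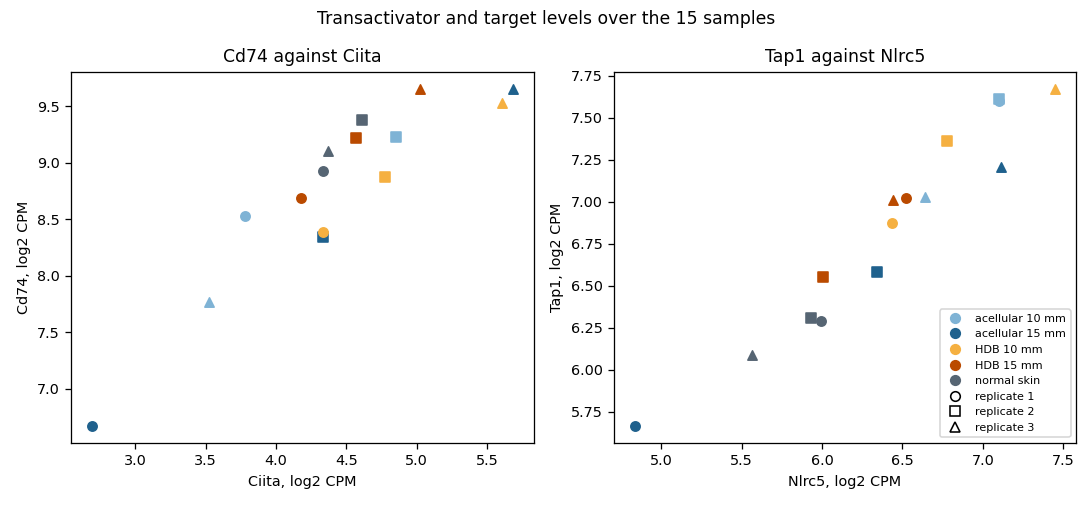
Cd74 against Ciita (left) and Tap1 against Nlrc5 (right) in log2 CPM, 1 point per sample, coloured by group and shaped by replicate. The points follow a line over all 15 samples (r = 0.914 and 0.968), with acellular 15 mm replicate 1 at the lower end of both.

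The effect of the transplanted MSCs was read from HDB against acellular skin of the same wound size. No member was called at either size. In the 10 mm wounds edgeR called 0 of 39 (0 at an unadjusted p under 0.05, against 3.53% of all genes), where 0% of all genes were called, and DESeq2 called 0, against 0.0792%. In the 15 mm wounds it called 0 (1 at an unadjusted p under 0.05, namely H2-Ke6, against 23.2%), where 2.92% of all genes were called, and DESeq2 called H2-Ke6 alone, against 9.35%. Over both sizes the count was 0 (1 at an unadjusted p under 0.05, against 15.8%), where 0% of all genes were called, and 0 by DESeq2, against 1.18%.

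Each of the 10 tested genes of the class II side had an estimate above 0 at both sizes, none of them called. At 10 mm the median over its 10 tested genes was 0.37 on the log2 scale, within a range of 0.20 to 0.76, with 10 of 10 above 0, while the class I side had a median of -0.049 with 10 of 26 above 0. At 15 mm the medians were 0.56 (10 of 10 above 0) and 0.48 (23 of 26), beside medians of all genes of -0.0084 and 0.0039. Genes that move together over samples are not independent. The summed macrophage markers had medians of 184 CPM in acellular and 587 in HDB skin at 10 mm, and 348 and 712 at 15 mm. In the same order the dendritic cell markers were at 45.2, 99.4, 81.7 and 96.6. Ptprc was at 39.7, 77.6, 52.1 and 74.3, and the Langerhans cell markers at 262, 213, 189 and 237. The sample ranges overlapped in each case, and the part of these cells in the class II estimates was not tested. Cd74 averaged 514 ± 206 CPM with HDB against 395 ± 192 without cells in the smaller wounds (SD, n = 3 each). In the larger wounds it averaged 605 ± 197 against 411 ± 360.3 CPM, with log2 fold changes at the 2 sizes of 0.38 (SE 0.586, adjusted p = 1.000) and 0.56 (SE 0.587, adjusted p = 0.594) in edgeR's test. For H2-Ab1 they were 0.35 and 0.55, and for H2-Aa 0.34 and 0.71. Values of H2-Aa when single samples were left out reached from 0.0017 to 0.76 at 10 mm and from 0.25 to 1.59 at 15 mm. At 10 mm the estimates of H2-DMa (-0.066), H2-DMb2 (-0.11), H2-Oa (-0.16) and H2-Eb1 (-0.0025) fell below 0 without HDB replicate 3, as did those of H2-DMb1 (-0.097) and H2-Ob (-0.33) at 15 mm without acellular replicate 1.

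At 15 mm same-number samples were set as pairs, a pairing picked from these same data and stated by neither labels nor methods. In it 5 of the 10 class II side genes (H2-Aa, H2-Ab1, H2-Eb1, H2-DMb2 and H2-Oa) were higher in the HDB sample in 3 of 3 pairs and the other 5 in 2 of 3. Of the 26 class I side genes 5 (B2m, H2-T10, Psmb8, Tap2 and Tapbp), or 19.2%, were higher in 3 of 3 and 16 in 2 of 3, and H2-Ke6 was higher in 3 of 3. Of all 15369 genes tested, 2955 (19.2%) were higher in 3 of 3 pairs and 5359 in 2 of 3. With the replicate number as a block the log2 fold changes of H2-Aa, H2-Ab1 and Cd74 were 0.88 (SE 0.515, adjusted p = 0.343), 0.71 (SE 0.513, adjusted p = 0.437) and 0.74 (SE 0.529, adjusted p = 0.433), and edgeR called 0 members, where 1.16% of all genes were called in the same fit. That fit held all 15 samples, with the effect of each number shared by the 5 groups. Its values are therefore not paired estimates from the 15 mm samples alone.

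On the class I side, B2m had log2 fold changes of 0.0070 at 10 mm and 0.68 at 15 mm (standard errors 0.326 and 0.327), Tap1 of -0.10 and 0.26, Psmb8 of -0.19 and 0.60, and H2-D1 of 0.013 and 0.53, none called. Without 1 sample the values at 15 mm ran from 0.39 to 1.09 for B2m, from 0.23 to 1.11 for Psmb8 and from 0.18 to 1.02 for H2-D1, the lowest in each case without acellular replicate 1. Ciita was at 0.83 and -0.070 and Nlrc5 at -0.012 and -0.033. H2-Ke6 was at 67.0, 69.7 and 55.9 CPM in acellular 10 mm skin, 28.8, 42.2 and 40.1 in acellular 15 mm skin, 52.9, 64.4 and 47.6 in HDB 10 mm skin, 51.3, 54.4 and 64.5 in HDB 15 mm skin and 58.9, 46.8 and 50.9 in normal skin. At 15 mm its 3 HDB samples lay above its 3 acellular ones, the only member without overlap there (8.55% of all genes were wholly higher and 11.7% wholly lower in HDB skin), with a log2 fold change of 0.61 (SE 0.169, adjusted p = 0.0673), and it gave -0.23 at 10 mm. In the 10 mm wounds the only member without overlap was H2-M9, wholly higher in HDB skin, where 4.53% of all genes were wholly higher and 6.47% wholly lower. Without acellular 15 mm replicate 3, edgeR called 6 members higher in HDB skin at 15 mm (B2m, H2-Bl, H2-Ke6, H2-T22, H2-T23 and Psmb10), where 14.9% of all genes were called, and without replicate 1 of that group the log2 fold change of Cd74 was 0.098.

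**Figure D5:**
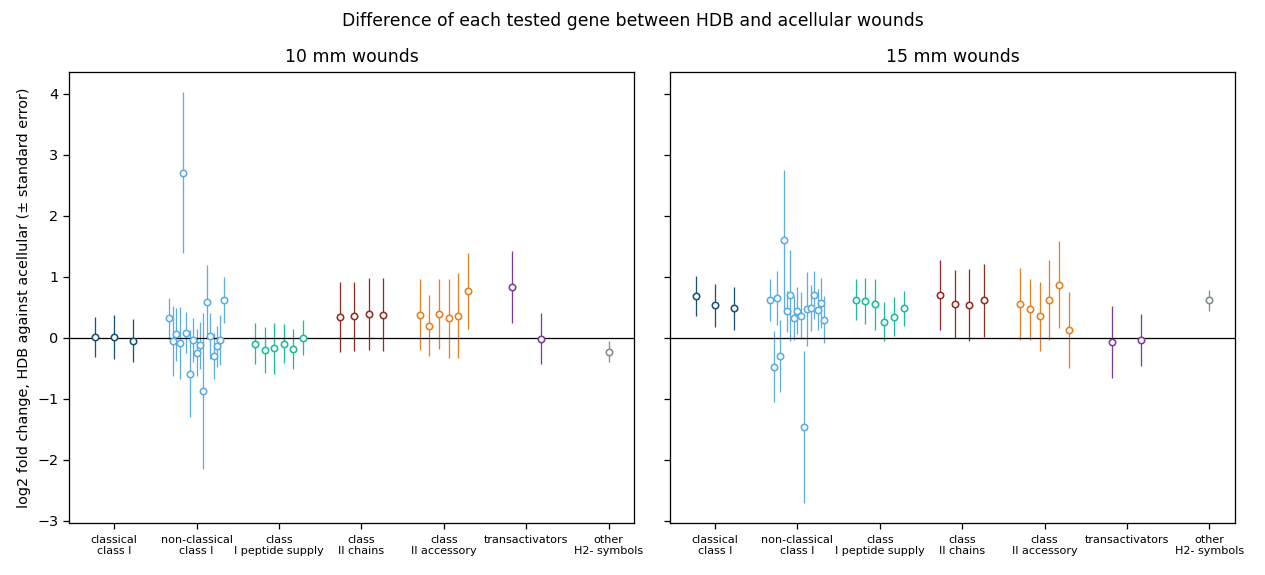
Log2 fold change of each tested gene between HDB and acellular skin (y axis, point and bar for the estimate ± its standard error), by role (x axis), in 10 mm wounds (left) and 15 mm wounds (right). No gene was called. Class II chains and accessory genes are above 0 in both panels (medians of the class II side 0.37 and 0.56), with bars that mostly reach 0.

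The difference between the effects at 15 mm and 10 mm was called by edgeR for 0 of 39 members (1 at an unadjusted p under 0.05, against 13.4%), where 0% of all genes were called. DESeq2 called H2-Ke6, against 3.11% of all genes. The medians of this difference were 0.50 over the class I side and 0.22 over the class II side. Between acellular wounds of 15 mm and 10 mm edgeR also called 0 members (8 at an unadjusted p under 0.05, against 17.5%) and 0% of all genes, while DESeq2 called H2-Ke6, against 3.72%. Here the class I side had a median of -0.58, with 23 of 26 below 0, and the class II side one of -0.067. Psmb9 (-1.01), Tap1 (-0.82) and B2m (-0.79) were examples, with adjusted p values of 0.253, 0.230 and 0.252. Without acellular 15 mm replicate 3, edgeR called H2-Ke6, H2-T22, Psmb8 and Tap1 lower in the larger wounds, where 3.38% of all genes were called. Without replicate 1 of that group it called 0 (0% of all genes), and the log2 fold changes of Psmb9, Tap1 and B2m shrank to -0.62, -0.51 and -0.50. Between HDB wounds of the same sizes 0 members (0 at an unadjusted p under 0.05, against 12.3%) and 0% of all genes were called (0 by DESeq2, against 1.99%), with medians of -0.10 and 0.095. Within samples, the mean log2 ratio of Cd74 to B2m was higher by 0.29 in HDB than in acellular skin over both sizes (exact permutation test within size, 400 arrangements, p = 0.35), that of H2-Ab1 to H2-K1 by 0.35 (exact permutation p = 0.19) and that of Ciita to Nlrc5 by 0.53 (exact permutation p = 0.105, and 0.02 without HDB 15 mm replicate 1). Adjusted over the 6 tests these were 0.35, 0.228 and 0.158. The permutation did not use the pairs set at 15 mm, which were picked from these data. Across them the ratio of H2-Ab1 to H2-K1 was higher in the HDB sample of 3 of 3 pairs and the other ratios in 2 of 3.

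The genes that surround these systems were counted between healed and normal skin from lists, beside the 30.9% of all genes called (14.2% higher and 16.7% lower). Of 12 genes of class I loading and processing, 5 were higher and 1 lower, among them the peptide-loading chaperone Calr (0.63 (SE 0.124, adjusted p = 0.00461)), the thiol oxidoreductase Pdia3 (0.77 (SE 0.152, adjusted p = 0.00461)) and the glucosidase subunit Ganab (0.46). These chaperones serve the folding of many proteins besides class I. Of the 7 genes for proteins of the class II enhanceosome, which bind the X and Y boxes, 4 were higher and 0 lower, with Nfya (0.55), Rfx5 (0.50) and Creb1 (0.32) having the smallest p. Among 10 class II processing genes Cd9 was higher (0.50) and March8 lower (-0.27), while the protease Ctss was at 0.98 and not called. Of 10 genes of the interferon gamma signal only the receptor chain Ifngr2 was called, lower (-0.55). Ifng itself was at 2.78 and Irf1 at 0.64, with adjusted p values of 0.0635 and 0.158. Of 9 tested MHC-like genes Mill1 was higher (1.85) and 3 were lower, among them the neonatal Fc receptor Fcgrt (-1.22) and Mill2 (-0.86), and of 9 costimulatory genes 0 were called by edgeR (2 at an unadjusted p under 0.05).

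Markers of the cells that carry class II were counted in the same comparison. Of 8 macrophage markers 5 were called lower in healed skin and 0 higher (C1qa -1.66, C1qb -1.75, Mrc1 -1.77, Csf1r -1.38 and Adgre1 -1.14), against 16.7% of all genes called lower and 14.2% higher. Cd68, Fcgr1 and Lyz2 were not called. The summed level of the 8 markers was 131 to 989 CPM in healed and 478 to 1144 CPM in normal skin. Of 8 dendritic cell markers 0 were called by edgeR in either direction (5 at an unadjusted p under 0.05, against 43.7% of all genes), of which Ccr7, Itgax and Xcr1 had values above 0 and Cd209a and Zbtb46 below it. Of the 2 Langerhans cell markers Epcam, which other epithelial cells also express, was higher (1.32) and Cd207, which marks Langerhans cells more closely, was at 0.088 and not called. The summed level of both was 139 to 325 CPM in healed and 98.6 to 116 CPM in normal skin, without overlap. No class II gene was called between healed and normal skin, and the part of these cells in the class II levels was not tested.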

How the data were processed

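RNA of 15 mouse skin samples (oligo(dT)-selected mRNA) was sequenced by the authors, who deposited 1 table of expected counts (estimated reads per gene and sample, not normalized). The submitters' processing notes name HISAT2 2.0.4, Bowtie2 2.2.5, RSEM 1.2.12 and the genome build GRCm38.p6, without stating their roles. RSEM shares reads between similar transcripts, so counts of near-identical class I genes depend on that sharing. Columns were matched to samples by name, and no row lacked a gene name.

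Expected counts were rounded to whole numbers and tested in R 4.3.3 with edgeR 4.0.16 (TMM normalization, filterByExpr, quasi-likelihood test). A single model held the 5 group means, and p-values were adjusted after Benjamini-Hochberg over 15369 genes, with a threshold of 0.05. Standard errors were obtained by dividing each log2 fold change by the root of its F value. Log2 CPM used a prior count of 2. Total counts per sample ranged from 15840551 to 18404188. The fit was tested on simulated data.

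Alternatives were DESeq2 1.42.0, its size factors in edgeR (RLE), no filter, a mean of at least 50 counts, a fit of the compared groups alone, a block for the replicate number, removal of each sample's trend with transcript length (with and without the block), and leaving out each sample. Correlations of the deviations of same-number samples were over 0.1 for each of the 3 numbers only between HDB and acellular skin at 15 mm (0.397, 0.167 and 0.183). Between other groups they fell as low as -0.545. The numbers were set as pairs only at 15 mm, a choice made from these same data, and neither labels nor methods say what a number marks. Correlations between samples of different numbers were not computed, so the pair counts only describe these samples. The study's methods name DESeq2, run here as an alternative.

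Members and lists were chosen with earlier results of these data known. The text names the member with the highest mean CPM of each role, each member called in healed against normal skin or in HDB against acellular skin, a few members best known for their role, the constitutive proteasome counterparts, and at most 3 called genes per pathway list. Others were named after their values were seen. Promoters and positions came from RefSeq (GRCm38.p6), and lengths from GENCODE for GRCm38. Exact and permutation tests were written with numpy, and scipy gave the ranks.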

Additional observations from a re-analysis of the deposited data

How the results depend on the processing

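The number of members called in healed against normal skin (2) was 4 with DESeq2, 1 with the stricter filter, 1 with the replicate number as a block and 1 with the block and the length trend removed, and ranged from 0 to 12 when single samples were left out. For acellular 10 mm skin (3) it was 6 with DESeq2, 2 with RLE factors, no filter, the replicate block, or block and length together, 1 with the stricter filter, 12 with only the groups compared and 0 to 2 with 1 sample left out. For acellular 15 mm skin (2) it was 1 with the stricter filter, 0 with no filter, only the groups compared, the replicate block, the length trend removed, or the last 2 together, and 0 to 6 with 1 sample left out. For HDB 10 mm skin (1) it was 0 with no filter, 6 with only the groups compared, 0 with the replicate block, alone or with the length trend removed, and 0 to 1 with 1 sample left out. For HDB 15 mm skin (0) it was 9 with only the groups compared and 0 to 1 with 1 sample left out. For HDB against acellular skin at 15 mm, for the difference between sizes and for acellular 15 mm against 10 mm (0 each), DESeq2 called 1 member and leaving out 1 sample gave 0 to 6, 0 to 0 and 0 to 4. The remaining comparisons stayed at 0 under the alternatives run. The counts with only the groups compared come from fits of fewer samples, and the cause of these and of the other shifts was not tested.

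For HDB against acellular skin at 15 mm the replicate block, fitted over all 15 samples, changed no call of a member, as 0 were called with and without it. With the block, Tap1 was no longer called in healed against normal skin (log2 fold change 0.82).

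Of 62 single-gene and ratio results under all alternatives, 960 values kept their direction and side of the threshold, 73 changed sign, 8 passed the threshold newly and 13 no longer passed it. In this tally the threshold was the adjusted p for genes but the unadjusted exact permutation p for ratios. No ratio passed after adjustment over the 6 tests. For HDB against acellular skin at 10 mm signs changed for B2m (-0.029 with the replicate block), H2-D1 (-0.014 with the block), H2-Q4 (0.048 with the length trend removed and 0.0097 with the block as well), Tapbp (-0.00094 with no filter, -0.035 with the block, -0.0056 with block and length) and Nlrc5 (0.0056 with DESeq2, 0.0070 with RLE, 0.024 with the stricter filter, 0.015 with only the groups compared). At 15 mm they were Ciita (0.14 with the replicate block, 0.17 with the length trend removed, 0.36 with both) and Nlrc5 (0.063, 0.29 and 0.38 in the same order), and over both sizes Nlrc5 (0.092 with the length trend removed, 0.10 with the block as well). In healed against normal skin H2-Ke6 changed sign (0.00020 with no filter, 0.051 with the length trend removed, 0.047 with the block as well).

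Leaving out single samples changed the sign at 10 mm for B2m (-0.19 to 0.23), H2-D1 (-0.16 to 0.17), H2-Q4 (-0.17 to 0.11), H2-T22 (-0.33 to 0.068), Nlrc5 (-0.35 to 0.21), Psmb8 (-0.40 to 0.067), Tap1 (-0.30 to 0.11) and Tapbp (-0.18 to 0.19). At 15 mm it did so for Ciita (-0.53 to 0.90), H2-M9 (-1.72 to 2.198), H2-Q4 (-0.052 to 0.92), Nlrc5 (-0.44 to 0.56) and Tap1 (-0.048 to 0.69), over both sizes for H2-Q4 (-0.045 to 0.44), H2-T22 (-0.0049 to 0.41), Nlrc5 (-0.23 to 0.27) and Tap1 (-0.074 to 0.29), and in healed against normal skin for Ciita (-0.060 to 0.30), H2-Aa (-0.30 to 0.051), H2-Ab1 (-0.27 to 0.046) and H2-Ke6 (-0.076 to 0.098). Low genes such as H2-M9 and H2-Q2 rest on few reads.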
